A study of Mus musculus with 10 samples.

Results

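Primitive endoderm is the first epithelium that splits from the pluripotent cells of the mouse embryo, and visceral endoderm is the layer it forms around the epiblast. The GATA factors *Gata6* and *Gata4* and the SRY-box factors *Sox17* and *Sox7* set up the lineage downstream of FGF signalling, the basement membrane proteins laminin and type IV collagen are laid down by it, and visceral endoderm then takes up and secretes nutrients with products that it shares with the fetal liver. Forced expression of *Gata6* or *Gata4* is known to drive mouse embryonic stem cells (mESCs) towards this fate. The 34 genes described here were chosen by name as regulators (11), basement membrane components (8), secreted carriers (9), endocytic receptors (3) and coagulation or fibrinolysis genes (3) of extraembryonic endoderm. All 34 had at least 1 probe, and they account for 43 of the 55681 non-control probes.

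The cells were E14 mESCs of 129/Ola background kept in serum and 1000 U/ml Lif, a cytokine that holds them undifferentiated. In 1 group (4 arrays) plasmids for 5 guide RNAs (gRNAs) directed at the promoter of *Hottip*, a long noncoding RNA, were transfected together with dCas9-VP160, a nuclease-dead Cas9 fused to a transcriptional activator, and in another (3 arrays) the pool was directed at the promoter of *Hoxa13*. The control (3 arrays) received non-targeting gRNAs and, by the protocol, dCas9 alone, so it may differ from the other groups by the activator as well as by the guides. All cells were selected with 2 μg/ml puromycin from 24 h after transfection for 24 h, and total RNA of the whole transiently transfected population was taken at 48 h and labelled with Cy3 for 1-colour Agilent arrays. The labels call the arrays of a group biological replicates.

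The *Hottip* guide sequences are shown because they define the group in which *Gata6* differed most from the control. All 5 spacers matched the RefSeq promoter window of *Hottip* (250 bases before to 50 after an annotated start, build GRCm38.p6) on chromosome 6, on either strand, between 52262547 and 52262665. Each is printed 5′ to 3′ in lower case, with the 3 bases that follow it in the genome, the NGG that Cas9 needs, in capitals:
Hottip sg1: gcagtaagaaggtaaactcgGGG
Hottip sg2: tctcctgactttagcggtccTGG
Hottip sg3: tacccaggaccgctaaagtcAGG
Hottip sg4: ggatcagggaaggttttattGGG
Hottip sg5: gggatcagggaaggttttatTGG

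RefSeq promoter windows were found for 24 of the 34 genes (34 windows). Without a window were *Gata4*, *Gata6*, *Sox17*, *Sox7*, *Fst*, *Lama1*, *Lamc1*, *Ttr*, *Plat* and *Thbd*. None of these windows held a site next to an NGG with fewer than 8 mismatches to any of the 5 spacers, against 3.86% of all promoter windows. At that share, 0 of 34 windows does not set these genes apart. At 8 mismatches there were 3 windows, those of *Hnf4a*, *Ihh* and *Lrp2*. That is 8.82% of the windows, against 18.2% of all 32851 promoter windows with 8 mismatches or fewer.

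Levels are log2 of the scanner's background-subtracted signal relative to the 75th percentile of the same array, so a value of 0 is the brightness of that percentile, and they compare arrays for 1 probe but not 1 gene with another. *Hoxa13*, the only target with a probe, stayed at background on all 3 arrays labelled *Hoxa13* gRNAs (probe means of −5.02 and −4.26, against −5.30 and −4.76 in the control), and for neither probe did the difference from the control pass the limma test (unadjusted p = 0.593 and 0.412). On the 4 *Hottip* gRNA arrays it was at least 81.3-fold and 144-fold above the control by these probes (adjusted p = 7.09e-05 and 0.000112). The group is therefore called by its label below, and any direction drawn from it rests on that label. All 8 ES cell markers (*Pou5f1*, *Sox2*, *Nanog*, *Klf4*, *Esrrb*, *Zfp42*, *Tbx3* and *Dppa5a*) were well above background on all 10 arrays. The 75th percentile of the signal ran from 586 to 2572 across arrays, 0.312% to 7.28% of spots were outlier spots that the scanner software rejected, and arrays 1 and 2 labelled *Hoxa13* gRNAs were on another slide than the other 8.

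Of the 34 genes, 15 were well above background on all 10 arrays: the regulators *Gata6*, *Cited1* and *Fst*, all 8 basement membrane genes, *Apoe*, *Amn*, *Cubn* and *F3*. Another 10 were so on 3 to 9 arrays: *Gata4*, *Sox17*, *Sox7*, *Hnf4a*, *Dab2*, *Pdgfra*, *Rbp4*, *Apoa2*, *Apom* and *Lrp2*. These 25 genes entered the adjusted test. The counts of arrays include those on which the spot reached the mark but was rejected as an outlier. *Foxa2*, *Ttr* and *Plat* passed on 1 array each. *Ihh*, *Afp*, *Apoa1*, *Apoa4*, *Apob* and *Thbd* did so on 0 of 10, and these 6 include *Afp*, the fetal albumin by which visceral endoderm is usually recognised. *Hottip* gRNA arrays 3 and 4 held 28158 and 25648 probes at 1 shared lowest value, so dim genes have no order there.

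None of the 25 genes was called (limma, Benjamini-Hochberg adjusted p under 0.05 over all probes tested) in any of the 3 comparisons: 0 of 25, against 0.718% of all 22830 probes tested for *Hottip* gRNAs against the control, 0.175% for the arrays labelled *Hoxa13* gRNAs against the control and 0.381% for *Hottip* gRNAs against the arrays labelled *Hoxa13* gRNAs. At these shares, 0 of 25 does not set the genes apart from all probes. At an unadjusted p under 0.05 there were 4 (*Gata6* and *F3* higher, *Dab2* and *Col4a1* lower), 2 (*Apoe* higher, *Rbp4* lower) and 3 (*Gata6* and *F3* higher, *Sparc* lower). That is 16%, 8% and 12% of the 25, beside 8.05%, 11% and 11.9% of all probes tested. The arrays of the 2 groups did not overlap for 16%, 20% and 16% of the 25, beside 13.7%, 23.9% and 17.7% of all probes tested, so that shares of this size are near those of all probes. The median difference of the 25 was −0.11, −0.17 and −0.22, beside −0.03, 0.19 and −0.26 over all probes tested. With *Hottip* gRNAs 12 genes were above 0 and 13 below.

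**Figure D1:**
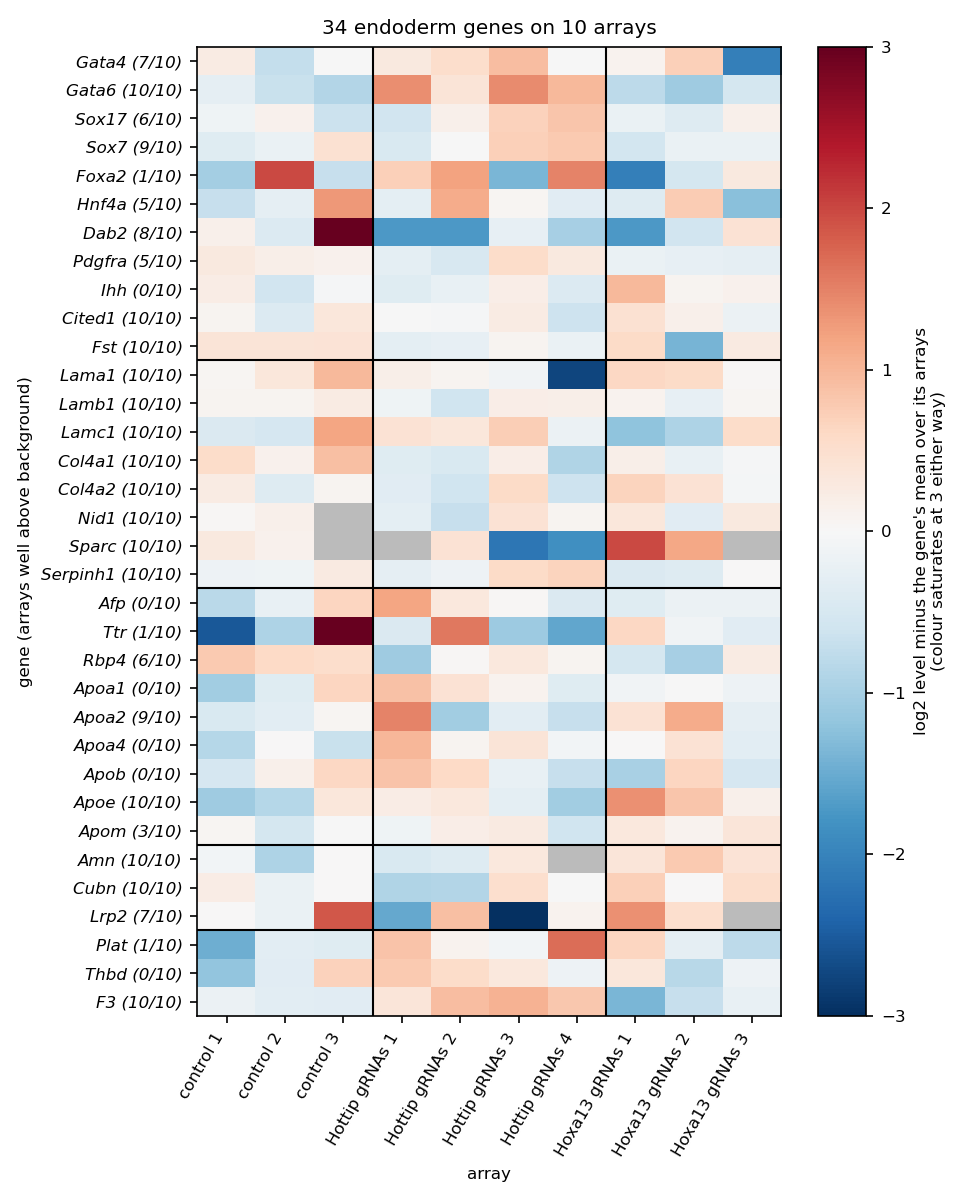
Heat map of the level of each of the 34 genes (rows, in 5 role groups; brackets give the arrays well above background) on the 10 arrays (columns), as log2 level minus that gene's mean over its arrays; grey marks rejected spots. *Gata6* and *F3* are the rows in which all 4 *Hottip* gRNA arrays are above the 6 others among the genes well above background on all arrays, and *Dab2* and *Ttr* stand out on control array 3.

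After *Hottip* gRNAs, *Gata6*, which opens the primitive endoderm programme, had the highest difference from the control of the 25 genes tested. Its level was 1.11, 0.70 and 0.51 in the control, 2.78, 1.78, 2.80 and 2.36 with *Hottip* gRNAs, and 0.61, 0.31 and 0.85 on the arrays labelled *Hoxa13* gRNAs. The 4 *Hottip* gRNA arrays were above all 6 others, and the other 2 groups overlapped. Control arrays averaged 0.77 ± 0.31 (SD, n = 3) and *Hottip* gRNA arrays 2.43 ± 0.48 (SD, n = 4), which is a difference of 1.66 (SE 0.371, 95% interval 0.84 to 2.47) or 3.15-fold. The two-sided exact permutation test gave p = 0.0286, the smallest that its 35 splits allow. In the limma fit across all probes the unadjusted p was 0.000989 and the adjusted p 0.0929, which missed the threshold of 0.05. Against the arrays labelled *Hoxa13* gRNAs the difference was 1.84 (SE 0.371, adjusted p = 0.0811), whereas these arrays and the control differed by −0.19 (95% interval −1.06 to 0.69, adjusted p = 0.859). The 2 comparisons of *Hottip* gRNAs share the *Hottip* gRNA arrays, and the 2 comparisons with the control share the control arrays.

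The call on *Gata6* depended on the processing. Over 23 alternatives the difference from the control ran from 1.52 to 1.96, and that from the arrays labelled *Hoxa13* gRNAs from 1.58 to 2.06. Some alternatives change only the test or the probes and arrays around this contrast, such as another filter on dim probes or an intensity trend in eBayes. These could not move the difference, so their agreement in size is not a check of it. *Gata6* passed the adjusted threshold in 4 of 23 in each comparison, with adjusted p from 0.0257 to 0.397 and from 0.0240 to 0.831. The median of the 11 by 11 spots around the *Gata6* probe ran from −4.80 to −3.64 in the control, −5.01 to −3.47 with *Hottip* gRNAs and −4.82 to −3.69 on the arrays labelled *Hoxa13* gRNAs. On *Hottip* gRNA arrays 3 and 4 it was at the shared lowest value, and its part in the difference was not tested. On the 1 slide that held all 3 groups the difference from the control was the same 1.66, since all 7 arrays were on it, and that from the 1 array labelled *Hoxa13* gRNAs on it was 1.58.

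**Figure D2:**
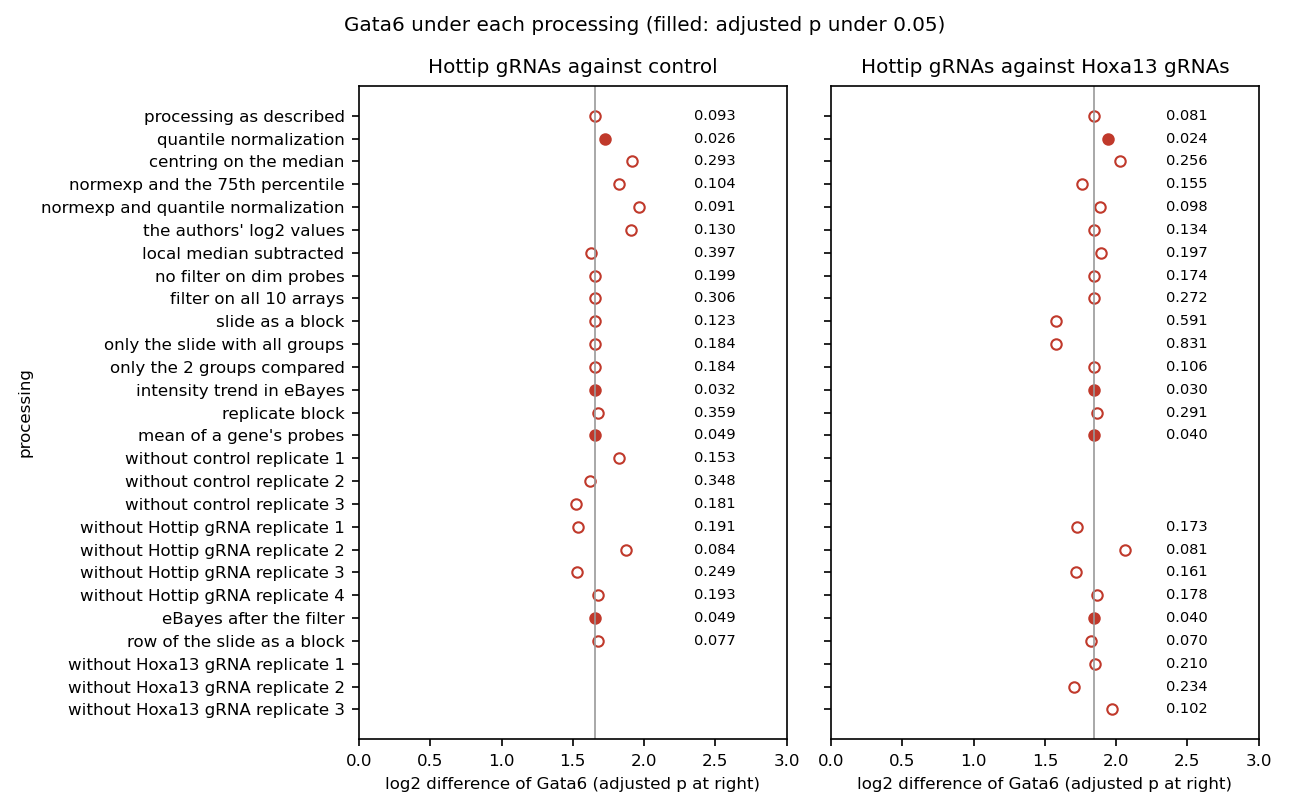
Log2 difference of *Gata6* (x axis) under each processing (y axis) for *Hottip* gRNAs against the control (left) and against the arrays labelled *Hoxa13* gRNAs (right); the grey line is the value as described, filled points have an adjusted p under 0.05, and the adjusted p is printed at the right. The difference stays between 1.52 and 2.06 while 4 points in each panel are filled.

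Markers of another extraembryonic lineage, trophoblast, were higher on the same arrays. Of 7 trophoblast markers, 3 entered the adjusted test, and these rose with *Hottip* gRNAs against the control, where 0.718% of all probes were called. *Cdx2*, a transcription factor of trophoblast stem cells, was at background on all 3 control arrays and at least 13.3-fold higher (adjusted p = 0.00105), as was *Krt7*, a keratin, at least 3.74-fold higher (adjusted p = 0.00684). *Gata3*, another trophoblast factor, was higher by 2.72 on the log2 scale (adjusted p = 0.00649). *Krt7* was well above background on the *Hottip* gRNA arrays only, and *Cdx2* on these and 1 other, so they entered the test through the group in which they were high. *Elf5*, *Hand1*, *Tpbpa* and *Prl3d1* stayed at background on all 10 arrays. The summed linear level of the list was 0.344 to 0.661 in the control, 2.31 to 3.34 with *Hottip* gRNAs and 0.451 to 0.815 on the arrays labelled *Hoxa13* gRNAs. None of 5 mesendoderm and definitive endoderm markers was bright enough to test, and their summed level was 0.125 to 0.411, 0.372 to 0.668 and 0.182 to 0.273 in the same order. *T* and *Gsc* were well above background on 1 *Hottip* gRNA array each, with their highest levels, −2.67 and −1.28, on array 4. *Mixl1*, *Mesp1* and *Cxcr4* were at background on all 10 arrays, so the sums are otherwise of signals at background. The lowest level counted as well above background was also higher on the *Hottip* gRNA arrays (−2.69 to −2.32, against −3.99 to −3.08 on the other 6). The part of either list in the *Gata6* difference was not tested. In RNA of whole cultures, more cells with the transcript and more transcript in each cell cannot be told apart.

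No regulator passed the adjusted test with *Hottip* gRNAs, *Gata6* included. *Gata4*, the partner of *Gata6*, was at −1.97, −2.94 and −2.22 in the control, −1.94, −1.70, −1.31 and −2.24 with *Hottip* gRNAs and −2.11, −1.51 and −4.27 on the arrays labelled *Hoxa13* gRNAs. The groups overlapped, and 1 of 3, 4 of 4 and 2 of 3 arrays gave a spot well above background. Its difference from the control was 0.58 (95% interval −0.74 to 1.91). *Sox17*, a SRY-box factor of the lineage, was at −2.42, −2.17 and −2.92 in the control, −2.87, −2.13, −1.60 and −1.46 with *Hottip* gRNAs and −2.49, −2.68 and −2.13 on the arrays labelled *Hoxa13* gRNAs, which again overlapped. Its difference was 0.49 (95% interval −0.43 to 1.40), and its second probe was at background in both groups. For *Sox7*, a close relative, the difference was 0.31 (95% interval −0.58 to 1.20). These intervals include 0 as well as increases as large as 1, a doubling.

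*Hnf4a*, the nuclear receptor of mature visceral endoderm, ran from −3.0 to −1.0 in the control and from −2.65 to −1.19 with *Hottip* gRNAs, a difference of 0.02. *Pdgfra*, a receptor of early primitive endoderm, was at −2.16, −2.28 and −2.32 in the control, −2.74, −2.93, −1.90 and −2.15 with *Hottip* gRNAs and −2.67, −2.70 and −2.72 on the arrays labelled *Hoxa13* gRNAs. The last 3 were below all control values, with a difference of −0.44 (adjusted p = 0.622). *Foxa2*, a forkhead factor of anterior visceral endoderm and definitive endoderm, was well above background on 1 *Hottip* gRNA array only, and its 10 values lay between −5.20 and −1.17 with full overlap. *Ihh*, the hedgehog ligand of visceral endoderm, was at background. The transcriptional cofactor *Cited1* differed by −0.11 with *Hottip* gRNAs. *Fst*, which codes for the activin antagonist follistatin, was at 0.21, 0.21 and 0.24 in the control and −0.48, −0.43, −0.09 and −0.37 with *Hottip* gRNAs, below every control value, but with a difference of −0.56 that missed the test (adjusted p = 0.945).

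*Dab2*, an endocytic adaptor that *Gata6* is known to switch on in endoderm, was at −0.38, −0.92 and 6.27 in the control, −2.23, −2.25, −0.77 and −1.52 with *Hottip* gRNAs and −2.23, −1.09 and −0.09 on the arrays labelled *Hoxa13* gRNAs. Control array 3 lay far above the other 9 arrays. The difference of −3.35 from the control (unadjusted p = 0.0377, adjusted p = 0.558) became −1.04 without that array. The spots around the probe were also brighter on it, with a median of −0.89 there and between −4.07 and −3.25 on the other 9, and their part was not tested. *Ttr*, the thyroid hormone carrier, had its 1 well-measured value on the same array, at 1.36 against −6.0 to −1.88 elsewhere. *Cer1*, a secreted antagonist of anterior visceral endoderm from the list of further regulators, did likewise, at 0.99 against −5.67 to −4.14. High values on that array were not confined to endoderm genes. The fibroblast marker *Col1a1* was at 0.999 on it and between −4.54 and −0.61 elsewhere, while the other fibroblast markers were not highest there. For *Dab2*, which has 2 annotated starts, the window of the first is shown because it holds the core GATA letters (GATAA on either strand, in capitals) in a gene that was not higher where *Gata6* was (chr15:6299539-6299838, plus strand):
Dab2 promoter: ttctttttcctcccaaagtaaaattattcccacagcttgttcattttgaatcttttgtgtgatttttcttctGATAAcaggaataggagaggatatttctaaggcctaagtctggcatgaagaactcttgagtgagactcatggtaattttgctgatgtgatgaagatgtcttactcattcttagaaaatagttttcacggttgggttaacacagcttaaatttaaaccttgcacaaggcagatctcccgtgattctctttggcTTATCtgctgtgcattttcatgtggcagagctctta
These letters were found in 7 of the 34 windows (20.6%), those of *Apoa1*, *Apoa2*, *Apob*, *Cited1*, *Dab2*, *Foxa2* and *Hnf4a*, and in 25.4% of all promoter windows. Searched first with 6 letters, A or T before GATA and A or G after it, 14.7% of these windows and 29.8% of all windows held a match. A match is not a site shown to be bound.

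The basement membrane genes were well above background on all 10 arrays, and none passed the adjusted test. Against the control, 2 of 8 were above 0 and 6 below with *Hottip* gRNAs (median −0.23), and the same counts held for the arrays labelled *Hoxa13* gRNAs (median −0.11). *Col4a1* and *Col4a2* code for the 2 chains of the common type IV collagen and are transcribed head to head from annotated starts 21 bases apart. Both windows cover the 78 bases in capitals below, which is why the *Col4a2* window (chr8:11312555-11312854, plus strand) is printed:
Col4a2 promoter: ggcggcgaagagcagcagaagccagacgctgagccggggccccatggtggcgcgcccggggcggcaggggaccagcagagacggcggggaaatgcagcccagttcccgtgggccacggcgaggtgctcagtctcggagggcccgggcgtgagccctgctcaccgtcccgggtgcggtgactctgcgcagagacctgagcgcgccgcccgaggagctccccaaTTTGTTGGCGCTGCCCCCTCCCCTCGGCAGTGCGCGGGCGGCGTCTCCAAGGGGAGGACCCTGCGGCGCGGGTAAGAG
*Col4a1* was at 2.19, 1.77 and 2.53 in the control, 1.26, 1.17, 1.83 and 0.73 with *Hottip* gRNAs and 1.80, 1.42 and 1.60 on the arrays labelled *Hoxa13* gRNAs. Of the *Hottip* gRNA values, 3 lay below all controls, and the difference was −0.91 (95% interval −1.72 to −0.10, unadjusted p = 0.0304, adjusted p = 0.522). *Col4a2* was at −0.37, −1.01 and −0.54 in the control, −0.96, −1.23, −0.04 and −1.24 with *Hottip* gRNAs and 0.04, −0.20 and −0.69 on the arrays labelled *Hoxa13* gRNAs. Its groups overlapped and its difference was −0.23 (95% interval −1.11 to 0.65), so the intervals of the paired genes also overlap.

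Laminin-111, the first laminin of the embryo, is made of the products of *Lama1*, *Lamb1* and *Lamc1*. *Lama1* was at 1.18, 1.46 and 2.11 in the control, 1.31, 1.20, 1.02 and −1.62 with *Hottip* gRNAs and 1.74, 1.71 and 1.15 on the arrays labelled *Hoxa13* gRNAs. *Hottip* gRNA array 4 alone was low, and the difference of −1.1 (adjusted p = 0.822) became −0.40 without it. *Lamb1* was at 1.77, 1.78 and 1.93, then 1.57, 1.1, 1.88 and 1.86, then 1.80, 1.45 and 1.74 in the same order of groups. It was among the steadiest genes of the set, with a difference of −0.23 (95% interval −0.95 to 0.50) for *Hottip* gRNAs. *Lamc1* was at 2.64, 2.55 and 4.25, then 3.49, 3.39, 3.81 and 2.90, then 1.86, 2.13 and 3.61, with a difference of 0.25 (95% interval −0.95 to 1.46). Its spread within the control and within the arrays labelled *Hoxa13* gRNAs exceeded the difference.

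*Sparc*, which codes for a matrix protein abundant in parietal endoderm, was at 3.71 and 3.55 on control arrays 1 and 2, 3.84, 1.25 and 1.58 on *Hottip* gRNA arrays 2, 3 and 4, and 5.39 and 4.58 on arrays 1 and 2 labelled *Hoxa13* gRNAs; its spot was rejected on the remaining 3. The difference of −2.76 between *Hottip* gRNAs and the arrays labelled *Hoxa13* gRNAs had an unadjusted p of 0.00815 and an adjusted p of 0.265, and over 22 alternatives it ran from −6.69 to −0.90. The surrounding spots moved the opposite way on the arrays with an accepted spot. Their local median was 0.36, −1.43 and 1.30 on *Hottip* gRNA arrays 2, 3 and 4. It was −4.56 and −3.13 on arrays 1 and 2 labelled *Hoxa13* gRNAs. Both measured arrays labelled *Hoxa13* gRNAs were on the other slide. A second, dimmer probe gave −0.98 (adjusted p = 0.456). Of 7 fibroblast markers, 4 were tested and 0 called in that comparison. Of the 4 tested, 3 were above 0 and 1 below (median 0.71). The collagen genes *Col1a1* (−4.54 to −3.20 against −1.70 to −0.61) and *Col1a2* (−4.27 to −3.96 against −2.94 to −2.33, not tested) were lower on the *Hottip* gRNA arrays without overlap, at background there. *Thy1* was higher without overlap, and *Col3a1* and *Dcn* were higher by their means with overlap. *Col3a1* was at 2.68 on *Hottip* gRNA array 4 and between −2.73 and −2.32 on the others of that group. The summed level of the list was 0.869 to 2.66 in the control, 0.959 to 7.02 with *Hottip* gRNAs and 1.38 to 2.43 on the arrays labelled *Hoxa13* gRNAs, and its part was not tested. *Nid1*, which links laminin to collagen, differed by −0.22 from the control with *Hottip* gRNAs by its brightest probe, while the other 2 gave −0.04 and 0.71. On the arrays labelled *Hoxa13* gRNAs the same 3 probes differed from the control by −0.004, 0.29 and 1.31. The last had an unadjusted limma p of 0.0318 and an adjusted p of 0.447. *Serpinh1*, the collagen chaperone, differed from the control by 0.21 with *Hottip* gRNAs.

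**Figure D3:**
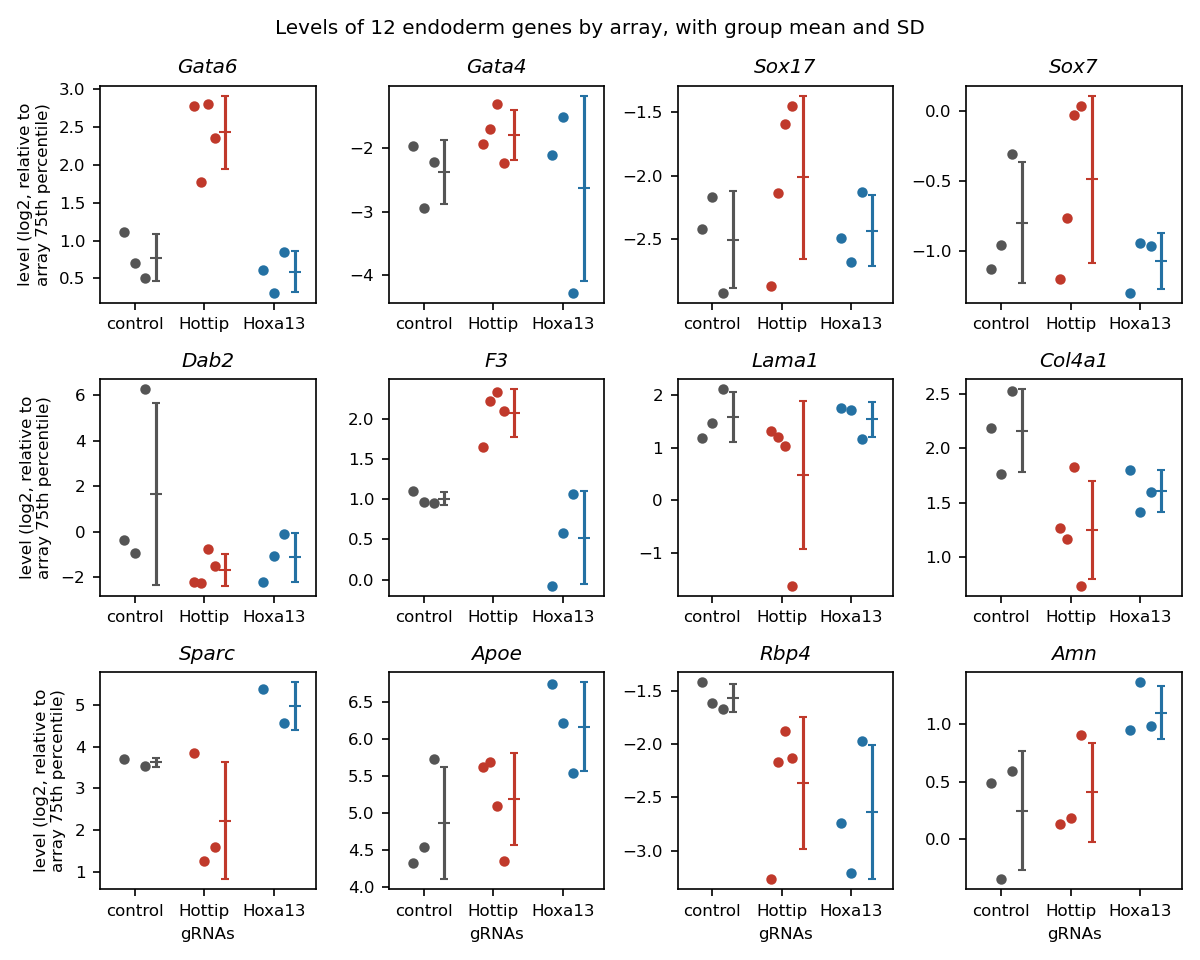
Level of 12 genes on each array (points; y axis log2 relative to the array's 75th percentile, scaled separately per gene) by gRNA group (x axis), with the group mean and SD beside the points. The 4 *Hottip* gRNA arrays lie apart from the others for *Gata6* and *F3*, and single arrays carry the spread of *Dab2*, *Lama1* and *Gata4*.

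The secreted carriers were mostly dim. *Apoe*, the lipid carrier that mESCs also express, was the exception, at 4.32, 4.54 and 5.74 in the control, 5.62, 5.70, 5.09 and 4.35 with *Hottip* gRNAs and 6.75, 6.22 and 5.54 on the arrays labelled *Hoxa13* gRNAs. Against the control the last group was higher by 1.31 (95% interval 0.14 to 2.48, unadjusted p = 0.0316, adjusted p = 0.447), with 1 overlapping array, and control array 3 was saturated. With the slide as a block, which leaves array 3 labelled *Hoxa13* gRNAs to carry the comparison, the difference was 0.68. It was 0.34 with quantile normalization, 0.095 with normexp and quantile normalization and 0.115 in the authors' log2 values. All 8 ES cell markers were also above 0 in this comparison (median 1.04, 3 at an unadjusted p under 0.05, 0 called), beside a median of 0.19 over all probes tested, and their part was not tested. *Rbp4*, the retinol carrier, was at −1.42, −1.61 and −1.67 in the control, −3.27, −2.17, −1.88 and −2.13 with *Hottip* gRNAs and −2.74, −3.21 and −1.97 on the arrays labelled *Hoxa13* gRNAs. Every control value was above all others. The differences were −0.80 (adjusted p = 0.760) and −1.07 (unadjusted p = 0.0415, adjusted p = 0.450), and the second became −0.40 with the slide as a block. *Apoa2* and *Apom*, both lipoprotein components, differed from the control by 0.10 each with *Hottip* gRNAs and by 0.66 and 0.42 on the arrays labelled *Hoxa13* gRNAs. *Afp*, *Apoa1*, *Apoa4* and *Apob* were at background on every array, at −3.94 or lower in the control except for *Apob* at −3.70 on array 3.

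The endocytic receptors of visceral endoderm, cubilin (*Cubn*), its membrane partner amnionless (*Amn*) and megalin (*Lrp2*), were measured on most arrays. *Amn* was at 0.49, −0.35 and 0.60 in the control, 0.13, 0.19 and 0.90 on the 3 *Hottip* gRNA arrays with an accepted spot and 0.95, 1.36 and 0.99 on the arrays labelled *Hoxa13* gRNAs, which lay above all others. The difference of the last group from the control was 0.85 (95% interval −0.07 to 1.78, adjusted p = 0.469). *Cubn* differed from the control by −0.34 with *Hottip* gRNAs and by 0.40 on the arrays labelled *Hoxa13* gRNAs by its brightest probe. Its second probe, also well above background on all 10 arrays, gave 0.08 and 0.83 (adjusted p = 0.999 and 0.494 in limma). *Lrp2* ranged from −2.93 to 1.01 within the *Hottip* gRNA arrays alone, and its difference of −1.44 had a 95% interval of −3.45 to 0.57.

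*F3*, the gene of tissue factor, which starts coagulation, was the other gene, of those tested, for which the *Hottip* gRNA arrays were above all others. It was at 1.1, 0.97 and 0.95 in the control, 1.65, 2.21, 2.32 and 2.10 with *Hottip* gRNAs and −0.08, 0.58 and 1.06 on the arrays labelled *Hoxa13* gRNAs. The difference from the control was 1.06 (SE 0.364, 95% interval 0.26 to 1.87), or 2.09-fold, with an exact permutation p = 0.0286, an unadjusted limma p of 0.0140 and an adjusted p of 0.387. Against the arrays labelled *Hoxa13* gRNAs it was 1.55 (adjusted p = 0.129), which passed the threshold with quantile normalization (adjusted p = 0.0478). The second probe gave 0.68 (95% interval −0.17 to 1.54) and 0.87, with 1 *Hottip* gRNA array inside the range of the others. *Plat*, the gene of tissue plasminogen activator, a protease of parietal endoderm, was at −5.51, −4.37 and −4.41 in the control and −3.19, −3.95, −4.13 and −2.36 with *Hottip* gRNAs. Only the last of these was well above background, so no bound on the fold is given. *Thbd*, the gene of thrombomodulin, was at background.

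**Figure D4:**
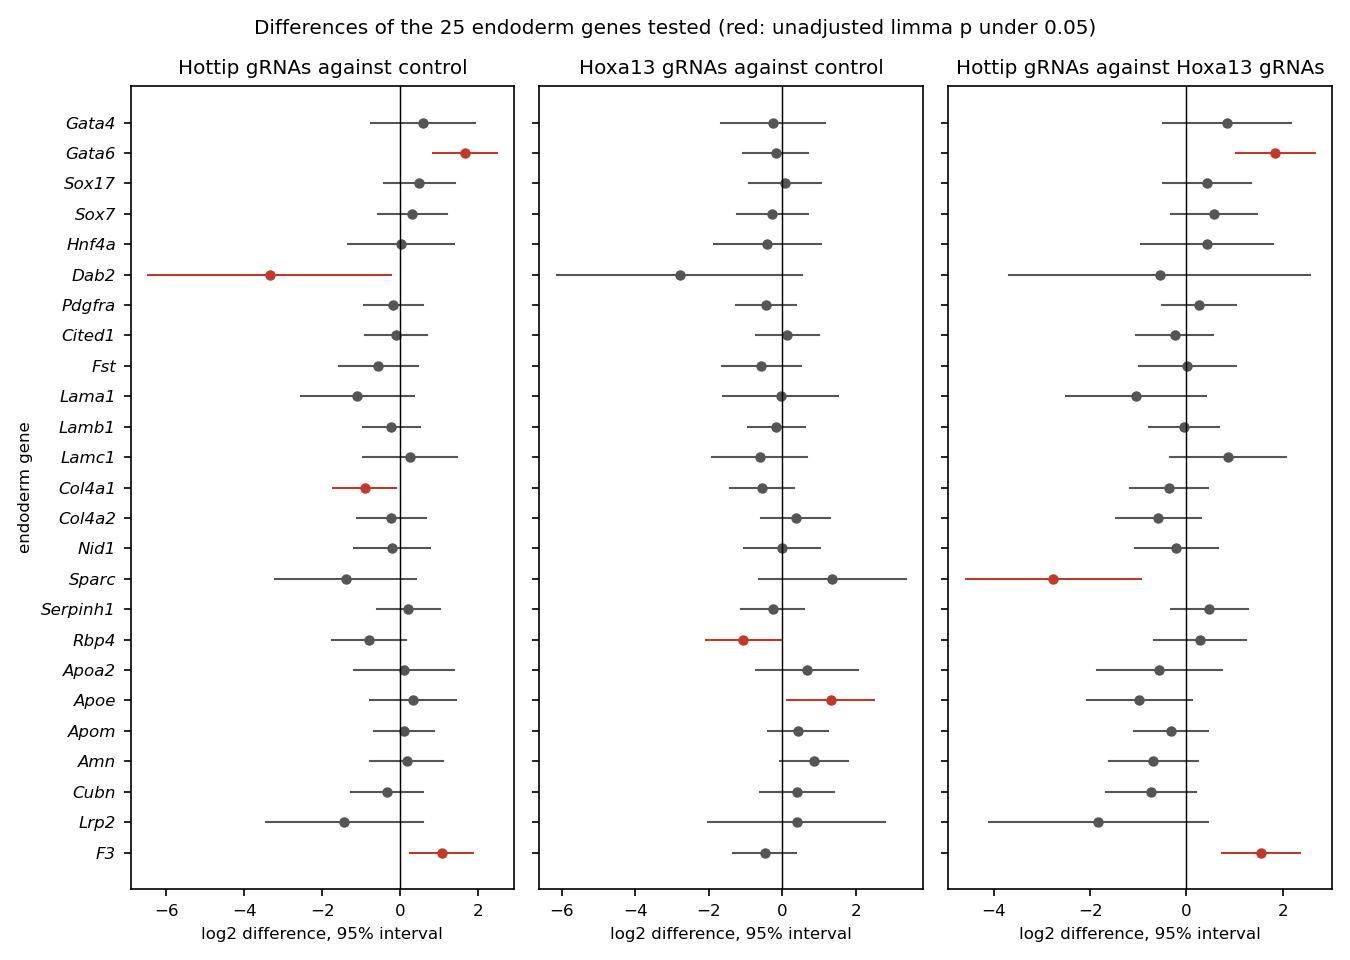
Log2 difference (x axis; points) with its 95% interval (bars) for each of the 25 genes tested (y axis), in the 3 comparisons; red marks an unadjusted limma p under 0.05. *Gata6* and *F3* are the genes in red to the right of 0 in both comparisons of *Hottip* gRNAs, and most intervals cross 0.

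Other genes of the same biology, from lists that share no gene with the 34, were set beside them. Of 12 further endoderm regulators and signals, 8 were tested and 0 called in any comparison. For *Hottip* gRNAs against the control, 3 were higher and 1 lower at an unadjusted limma p under 0.05. That is 50% of the 8, beside 8.05% of all probes tested. The arrays of these groups did not overlap for 62.5% of the 8, beside 13.7% of all probes tested. The list was chosen with earlier results of these data known, so these shares are not a test of it and no conclusion is drawn from them. With *Hottip* gRNAs, *Snai1*, a repressor active in epithelial to mesenchymal transition, was at 1.21 above the control (adjusted p = 0.272), *Pth1r*, the parathyroid hormone receptor of parietal endoderm, at 0.99 (adjusted p = 0.537) and *Eomes*, a T-box factor, at 0.88 (adjusted p = 0.553). *Hhex*, a homeobox gene of anterior visceral endoderm, was at −1.24 (adjusted p = 0.350). Of 15 further basement membrane and collagen processing genes, all were tested and 0 called, with a median of −0.03. *P4ha2*, a collagen prolyl hydroxylase subunit, had the largest difference among them, 1.70 (adjusted p = 0.213). Of 12 further secreted and absorptive products, 6 were tested and 0 called, and *Fga*, *Fgb*, *Apoc3*, *Apoh* and *Vil1* were at background. All 8 genes of FGF signalling were tested and 0 called. The 5 genes given with values here were chosen after their values were seen.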

How the data were processed

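The data were 10 Agilent arrays of 1 colour. As deposited, each scanner file lists the intensity of every spot as read by Agilent Feature Extraction; its processed signal is background-subtracted, with multiplicative detrending except on *Hottip* gRNA arrays 3 and 4. The authors also deposited log2 values for these arrays; compared with the scanner files they behave as background-subtracted and quantile normalized, and served as an alternative. The submitters' processing notes name limma.

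Control spots and rejected outlier spots were left out of the values, log2 signal was set against the array's own 75th percentile over all non-control spots, and spots of 1 probe were averaged. Probes were named through RefSeq accessions (GRCm38.p6; the array header names mm9); a gene with several probes is given by its brightest. limma 3.58.1 in R 4.3.3 (lmFit, eBayes) was fitted over all arrays and probes. Benjamini-Hochberg adjustment covered probes that reached the scanner's well-above-background mark on 3 or more arrays. Rejected outlier spots were included when this mark was counted. Simulated data with known changes were used to check the fit. For genes not above background in 1 group, a bound used the dimmest such signal of each array.

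Per-array values are given for genes with an unadjusted p under 0.05 and for a list of main lineage genes; other genes are given by range or difference. The 34 genes and all lists were chosen with earlier results of these data known. The number of arrays and signal over background limit precision. Same-numbered arrays of different groups did not deviate together (correlation of deviations −0.23 to 0.14). Guide sequences of the *Hoxa13* pool are not reported here.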

Additional observations from a re-analysis of the deposited data

Results flagged for a closer look

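*Lama1* on *Hottip* gRNA array 4 stood apart from the other 3 arrays of its group: its level was −1.62 there and between 1.02 and 1.31 on the others, so that its distance to the nearest array took up 0.902 of the whole range of the group, above the 95% critical value of Dixon's ratio. Of the 23 genes that entered the adjusted test with 4 accepted values in this group, it was the only 1 for which this was so, and chance alone gives about 1 such gene in 20. The median of the surrounding spots was −3.12 on that array and between −4.54 and −3.85 on the other 3.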

How the results depend on the processing

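The count of endoderm genes called for *Hottip* gRNAs against the control went from 0 to 1 (*Gata6*) with quantile normalization, with an intensity trend in eBayes, with the mean of a gene's probes and with eBayes run after the filter, the last chosen after seeing the data. Against the arrays labelled *Hoxa13* gRNAs the count went from 0 to 2 (*Gata6* and *F3*) with quantile normalization and to 1 (*Gata6*) under the other 3. It stayed at 0 under the remaining 19 alternatives in each of these comparisons, and under all 22 for the arrays labelled *Hoxa13* gRNAs against the control. The median difference of the 25 genes between *Hottip* gRNAs and the arrays labelled *Hoxa13* gRNAs went from −0.22 to 0.24 when the local median was subtracted; the cause was not tested. With each array left out in turn that median ran from −0.36 to −0.02, and the medians against the control from −0.22 to 0.06 and from −0.19 to −0.03. Replicate numbers only name the arrays; with the replicate number as a block *Gata6* was 1.68 above the control (adjusted p = 0.359) and 0 genes were called. Signal limits the dim genes: 9 of the 34 could not be tested.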
